A study of Mus musculus with 4 samples.

Results

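The genes described here are the 10 members of a set around the transcriptional coactivators YAP and TAZ, taken by symbol from the 32285 genes listed in the files. They are Yap1 and Wwtr1 (the gene of TAZ), their DNA-binding partner Tead1, and Ccn1, Ccn2, Ankrd1, Amotl2, Lats2, Ajuba and Crim1, which are used as YAP and TAZ targets or act as regulators in the same pathway. They were measured in lung cells of mouse embryos at E16.5 (E counts embryonic days), in 2 libraries of Myrf mutants and 2 libraries of Cre controls. Embryos came from matings of Myrf Fl/Fl;R26TdTomato/R26TdTomato with Wt1creERT2;Myrf Fl/Fl mice, and mothers received tamoxifen at E12.5. Cre, expressed from the Wt1 gene and active only with tamoxifen, removes floxed Myrf sequence and turns on tdTomato in cells with active Wt1 and in their descendants. The labels do not state the Myrf alleles of the Cre controls. All 4 libraries hold tdTomato-positive, DAPI-negative cells, so controls and mutants alike carried Cre, the reporter and the tamoxifen dose. For each genotype the lungs of 3 to 5 embryos were combined, and the first genotype call rested on the shape of lungs and cells, with PCR later. The labels do not say if libraries of 1 genotype hold different pools of embryos, so the p-values measure no more than the spread among these 4 libraries, which may be technical.

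YAP and TAZ are the end point of the Hippo pathway. When the kinase cascade is active, the LATS kinases phosphorylate YAP and TAZ, which are then held in the cytoplasm or degraded. When it is not, they enter the nucleus and drive transcription with the TEAD proteins, which bind DNA. The pathway responds to cell contact, cell shape and tension in the actin cytoskeleton, and it controls its own output, since Lats2 and Amotl2 are both targets and inhibitors of YAP and TAZ. The mesothelium, which covers the lung, is a flat epithelium under stretch, and in the embryo some of its cells move inward and become smooth muscle and fibroblasts. YAP and TAZ are controlled mainly as proteins, so the RNA level of their own genes does not report their activity.

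The libraries held between 281 and 4275 cells after filtering and between 8175944 and 80755665 unique molecular identifiers (UMIs, counted RNA molecules), and they shared at most 4 cell barcodes. Cells of control libraries 1 and 2 had a median of 29175 and 14322 UMIs, and cells of mutant libraries 1 and 2 one of 38719 and 15957 UMIs. In control library 2, 2027 of 3503 cells had a mixed profile and were left unnamed. The share of cells with Xist among cells with RNA of Xist or of Y-linked genes ranged from 24.2 to 82.8%, and it was higher in both mutant libraries. Its part in the results was not tested. Cells were named from markers, with the members kept out of the genes used for clustering. Mesothelial-like cells (Upk3b, Msln and related genes) numbered 113 and 741 in the controls, but 2 and 14 in the mutants. Muscle-like cells (Des, Tnnt2, Actc1 and Ramp1) numbered 253 and 1373 in the mutants, but 1 and 22 in the controls. Fibroblast-like cells numbered 90, 526, 105 and 2614, and smooth muscle-like cells (Myh11) 16, 117, 22 and 129, in control libraries 1 and 2 and mutant libraries 1 and 2. That order is kept wherever 4 values follow each other. Myrf, the targeted gene, stood at 140.0 and 101 CPM in control mesothelial-like cells and at 25.3 and 15.3 CPM in mutant muscle-like cells. CPM, a count scaled to library size, is the UMI count of a gene summed over the cells of a class in a library, divided by all UMIs of those cells and brought to a common total. A 3' tag outside the floxed part would still be counted, so this level does not check the deletion.

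The cells sorted as mesothelial by label were thus of several types, and the main comparison set the muscle-like cells of the mutants against the mesothelial-like cells of the controls. Class and genotype cannot be told apart in it. Of 10 smooth muscle markers, 8 rose and 1 fell in the muscle-like cells, beside 5.42% and 7.52% of all genes tested. The list summed to 8474 and 5780 CPM there and to 1994 and 1590 CPM in control mesothelial-like cells. In smooth muscle-like cells it summed to between 10525 and 14416.5 CPM. The muscle-like class was found by clustering, so these values describe it. Markers of heart muscle were mixed in the muscle-like cells. Myh6 and Nkx2-5 were at 0 in both mutant libraries, and they were at 0 or nearly 0 in control mesothelial-like cells as well. The 9 heart markers summed to 89.2 and 169 CPM, beside 118 and 119 CPM in control mesothelial-like cells. Of the 7 that were tested, 4 were higher in the muscle-like cells and 1 passed. The one that passed, Nppa (an atrial hormone), stood at 0.24 and 0.12 CPM in mesothelial-like and at 7.41 and 5.88 CPM in muscle-like cells (edgeR adjusted p = 0.00158). Myl4, an atrial light chain, stood at 1.21 and 1.36 CPM and then at 3.45 and 36.7 CPM and did not pass (edgeR adjusted p = 0.0744). The part of these genes in the results was not tested. Of 8 skeletal muscle markers, 5 were at 0 in mutant library 1 and 1 in mutant library 2, and the list summed to 10.0 and 8.56 CPM, beside 7.24 and 7.67 CPM in control mesothelial-like cells. Red blood cell markers summed to 972 CPM in the muscle-like cells of mutant library 1 and to 15.4 CPM in those of mutant library 2, beside 103 and 11.6 CPM in control mesothelial-like cells, and their part in the results was not tested.

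TEAD proteins bind a short motif whose core is GGAATG, and the promoters below are shown because they belong to the members whose RNA differed most clearly, or are the classical targets, and because they hold that core. Of the 10 members, 8 had an entry in the RefSeq promoter table (build GRCm38.p6), and Ccn2 and Tead1 had none. The 250 bases before the start were searched on both strands for GGAATG, which reads CATTCC on the other strand. It was present in 7 of the 8 genes, the exception being both entries of Lats2. Over the 27025 genes of the table, 14.4% had an entry that held it. By entry, 8 of the 10 entries of members held it, beside 12.6% of all 32851, and 1.02% of all held it 2 times or more, as Ankrd1 and Ajuba do. The motif TGANTCA, bound by AP-1 factors, was in none of the members' windows, and in 6.75% of all promoters. The members were chosen around YAP, TAZ and their targets, so a share above that of all genes is no independent result. A match is a string of letters and not a measured binding site, and no binding was measured here. RefSeq starts can differ from the GENCODE gene spans given below. The windows of Ankrd1 and Amotl2 and both of Lats2 lie inside those spans, so they are not sequence upstream of the whole gene. The windows lie at chr19:36119845-36120094 for Ankrd1 (minus strand), chr3:145649986-145650235 for Ccn1 (minus), chr9:102717554-102717803 for Amotl2 (plus), chr14:54577662-54577911 for Ajuba (minus) and chr17:78199998-78200247 for Crim1 (plus). Each is printed 5′ to 3′ on the gene's strand, with the motif in capitals:
Ankrd1: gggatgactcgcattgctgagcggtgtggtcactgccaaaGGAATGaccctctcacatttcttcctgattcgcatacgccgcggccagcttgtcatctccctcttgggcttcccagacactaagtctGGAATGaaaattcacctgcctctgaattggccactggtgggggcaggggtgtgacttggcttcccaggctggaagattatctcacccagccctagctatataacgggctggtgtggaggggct
Ccn1: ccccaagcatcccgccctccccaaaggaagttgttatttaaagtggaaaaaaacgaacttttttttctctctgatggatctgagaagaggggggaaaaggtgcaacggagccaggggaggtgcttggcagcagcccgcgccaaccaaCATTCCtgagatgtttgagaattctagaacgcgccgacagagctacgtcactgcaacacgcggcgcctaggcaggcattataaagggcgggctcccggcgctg
Amotl2: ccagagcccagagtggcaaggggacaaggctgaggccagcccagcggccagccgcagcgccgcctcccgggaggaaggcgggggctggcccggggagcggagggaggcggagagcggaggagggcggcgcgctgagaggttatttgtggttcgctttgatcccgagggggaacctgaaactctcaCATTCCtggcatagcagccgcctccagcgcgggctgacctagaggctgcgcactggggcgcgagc
Ajuba: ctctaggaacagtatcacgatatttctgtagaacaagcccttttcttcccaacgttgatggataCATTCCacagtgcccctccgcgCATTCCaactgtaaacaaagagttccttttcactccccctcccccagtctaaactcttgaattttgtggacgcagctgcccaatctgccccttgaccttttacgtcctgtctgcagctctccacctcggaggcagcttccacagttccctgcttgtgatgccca
Crim1: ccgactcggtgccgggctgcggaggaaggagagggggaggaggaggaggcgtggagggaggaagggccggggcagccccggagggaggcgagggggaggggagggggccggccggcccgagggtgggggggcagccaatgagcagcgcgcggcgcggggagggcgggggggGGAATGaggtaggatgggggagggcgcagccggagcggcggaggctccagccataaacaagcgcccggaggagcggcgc
Counted back from the start, the first base of the motif is at -210 and -123 in Ankrd1, at -103 in Ccn1, at -65 in Amotl2, at -186 and -164 in Ajuba and at -79 in Crim1. The motifs read GGAATG in Ankrd1 and Crim1, and CATTCC in Ccn1, Amotl2 and Ajuba. In Yap1 itself the first base is at -141.

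Of the 10 members, 5 fell and 1 rose between the mesothelial-like cells of controls and the muscle-like cells of mutants. Ccn1, Amotl2, Lats2, Ajuba and Crim1 fell, Ankrd1 rose, and Yap1, Wwtr1, Tead1 and Ccn2 did not pass the test. A gene passed at a Benjamini-Hochberg adjusted p under 0.05 in edgeR's quasi-likelihood test, over 14425 genes. Of all those genes 7.52% fell and 5.42% rose, 12.9% in either direction. The median log2 change of the members was -0.51, beside 0.02 over all genes tested. Both mutant values lay below both control values for 5 members (31.6% of all genes) and above for 2 (22.4%), and they overlapped for 3.

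The coactivator genes and Tead1 did not pass the test between the mesothelial-like cells of controls and the muscle-like cells of mutants. Yap1 (mm10 chromosome 9, 7931999 to 8004596) stood at 46.3 and 45.9 CPM in control mesothelial-like cells and at 47.1 and 36.4 CPM in mutant muscle-like cells. The values of the groups overlapped, with a log2 change of -0.06 ± 0.18 (SE, n = 2 libraries per group, edgeR adjusted p = 0.875). Wwtr1 (chromosome 3, 57455649 to 57575910) stood at 113 and 97.1 CPM in mesothelial-like cells and at 108 and 77.1 CPM in muscle-like cells. Its log2 change was -0.10 ± 0.21 (SE, edgeR adjusted p = 0.811). Tead1 (chromosome 7, 112679318 to 112906807), which carries YAP and TAZ to DNA, stood at 236 and 188 CPM and then at 260.0 and 168 CPM, with a log2 change of 0.09 ± 0.24 (SE, edgeR adjusted p = 0.866). For each of the 3 genes mutant library 1 was above mutant library 2, and the direction of each change turned in at least 1 alternative processing. In fibroblast-like cells the log2 changes were 0.10, -0.05 and 0.02 for Yap1, Wwtr1 and Tead1.

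**Figure D1:**
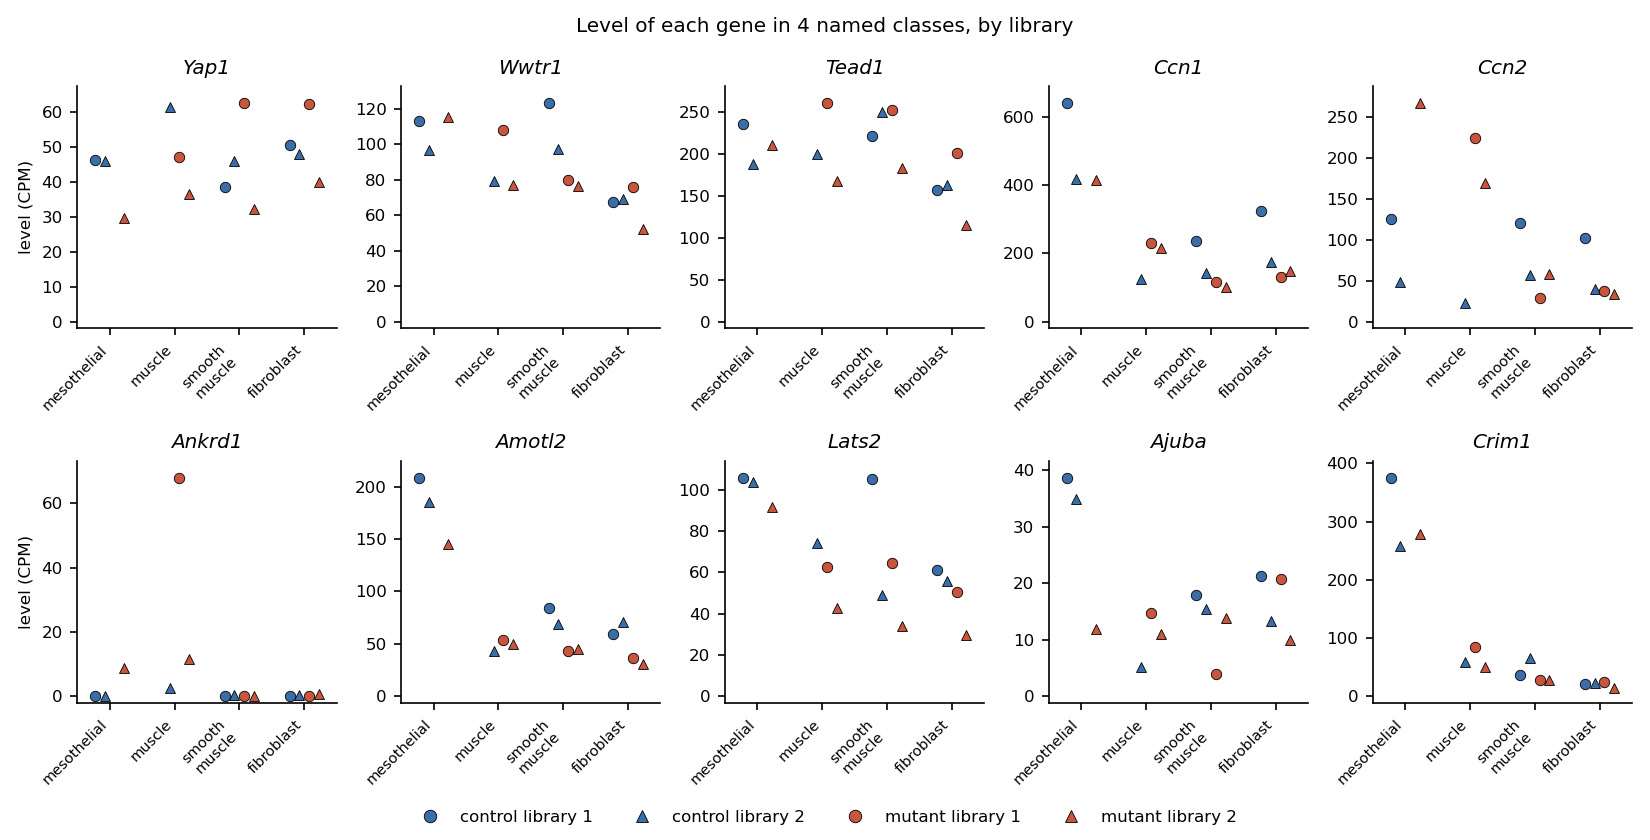
Level of each of the 10 genes in CPM (UMIs of the gene scaled to a common total, vertical axis from 0, scaled per gene) in mesothelial-like, muscle-like, smooth muscle-like and fibroblast-like cells. Each point is 1 library, with circles for library 1 and triangles for library 2, and sums of under 14 cells are left out. Control mesothelial-like cells stand above mutant muscle-like cells for Ccn1, Amotl2, Lats2, Ajuba and Crim1, and Ankrd1 is near 0 outside the muscle-like cells and the 14 mesothelial-like cells of mutant library 2.

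Ccn1 and Ccn2 (earlier named Cyr61 and Ctgf) encode related secreted matrix proteins and are the usual readouts of YAP and TAZ activity, and here Ccn1 was lower and Ccn2 higher in the muscle-like cells. Ccn1 (chromosome 3, 145646976 to 145649981) stood at 640.2 and 420.0 CPM in control mesothelial-like cells and at 231 and 216 CPM in mutant muscle-like cells. Both mutant values lay below both control values, and Ccn1 fell by 1.15 ± 0.27 (log2, SE), or 2.22-fold (edgeR adjusted p = 0.0359). Without control replicate 1 or without control replicate 2 it did not pass (edgeR adjusted p = 0.420 and 0.106, in a range of 6.83e-06 to 0.420 over 13 alternatives). Ccn2 (chromosome 10, 24595442 to 24598683) stood at 125 and 48.4 CPM in control mesothelial-like cells and at 224 and 169 CPM in mutant muscle-like cells. Both mutant values lay above both control values, but the 2 controls differed from each other by more than the 2 mutants did. The log2 change of 1.29 ± 0.41 (SE) did not pass (edgeR adjusted p = 0.0992), and it passed in 7 of 13 alternatives, among them DESeq2 (adjusted p = 0.00412, in a range of 1.85e-08 to 0.411). Within mutant library 1 Ccn2 was 6.07-fold higher in muscle-like than in fibroblast-like cells, and within mutant library 2 it was 4.93-fold higher. Mesothelial-like cells exceeded fibroblast-like cells by only 1.22-fold in both control libraries. The muscle-like cells of the mutants also exceeded the smooth muscle-like cells of the same libraries in Ccn2, by 7.66- and 2.93-fold, and in Ccn1 by 2.003- and 2.12-fold. Ccn1 and Ccn2 are also immediate early genes, which tissue dissociation can induce, and a list of 20 immediate early and dissociation response genes summed to 9161 and 9960 CPM in control mesothelial-like cells, 7229 and 6023 CPM in mutant muscle-like cells, and between 1930 and 3688 CPM in fibroblast-like cells. Its part in the Ccn1 and Ccn2 values was not tested.

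Ankrd1 (chromosome 19, 36111961 to 36120099), a nuclear and sarcomeric ankyrin repeat protein of muscle and another classical YAP target, appeared in the muscle-like cells. The 14 mesothelial-like cells of mutant library 2 held it too, so it was not particular to muscle-like cells in that library. Those 14 cells have no replicate. In control mesothelial-like cells Ankrd1 had 0 UMIs in library 1 and 2 UMIs in library 2, among 4144219 and 16165251 UMIs of all genes. The muscle-like cells of mutant libraries 1 and 2 held 942 and 328 UMIs, or 67.8 and 11.5 CPM. Both mutant values were above both control values, and the 2 mutant values were far apart. Against the limit of 3 UMIs that a count of 0 allows, the level in mutant library 1 was at least 93.7-fold higher than in control library 1. In mutant library 2 it was 93.3-fold higher than in control library 2 (95% counting interval 25.6 to 774). Ankrd1 passed the test (edgeR adjusted p = 0.00866), and also in 13 of 13 alternatives, with adjusted p of at most 0.0131. Within mutant library 2, muscle-like cells exceeded fibroblast-like cells 15.9-fold (counting interval 11.1 to 23.3). Smooth muscle-like cells had 1 UMI of Ankrd1 in all 4 libraries together.

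Few muscle-like cells held a UMI of Ankrd1. It was found in 33 of 253 muscle-like cells of mutant library 1 (13.0%, exact 95% interval for counting error only, 9.15 to 17.8%) and in 57 of 1373 of mutant library 2 (4.15%, 3.16 to 5.35%). The median UMI count of these cells was 43706 and 15708. After every cell was thinned to 5000 UMIs, the shares were 5.39% and 1.94%, and 0 of 113 and 0 of 721 mesothelial-like cells held a UMI. Immune-like cells, which should lack the gene, held Ankrd1 in 1 of 42 cells (2.38%, median 13086 UMIs), and in 1 of 38 after thinning (2.63%, interval 0.0666 to 13.8%), which is too few cells to set against the share of mutant library 2. In that library itself, fibroblast-like cells held it in 0.393% after thinning (0.189 to 0.721%) and smooth muscle-like cells in 0 of 126 (up to 2.38%), beside 1.94% (1.27 to 2.83%) of muscle-like cells. The counts per cell also differed. Of the muscle-like cells, 17 in mutant library 1 and 18 in mutant library 2 held 5 or more UMIs, with up to 202 and 41 UMIs in 1 cell. Immune-like, smooth muscle-like and control mesothelial-like cells had none with 5 or more, and fibroblast-like cells had 2, both in mutant library 2. The tenth of the muscle-like cells with the most Ankrd1 (26 and 138 cells) held 99.3% of its UMIs in mutant library 1 and 100% in mutant library 2. Since only 33 and 57 cells held any UMI, these 2 shares largely restate that few cells did.

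A finer clustering at resolution 0.8 divided the muscle-like cells into a larger subcluster, led by Thsd7b, Des and Tnnt2, and a smaller one, led by Actc1, Fbxl22 and Myl4. The members were kept out of this clustering too, but subclusters rest on the same cells, so the levels are a description. Ankrd1 lay almost wholly in the larger subcluster, at 75.7 and 14.5 CPM in mutant libraries 1 and 2 (942 and 325 UMIs). The Myl4 subcluster held 0 UMIs in 26 cells of mutant library 1 and 2 UMIs in 244 cells of mutant library 2. Ccn2 followed the same order, with 241 and 194 CPM in the larger subcluster and 100 and 79.1 CPM in the Myl4 subcluster. Crim1 had the opposite order, with 76.7 and 48.5 CPM in the larger and 188 and 60.9 CPM in the Myl4 subcluster. Amotl2 was at 54.6 and 57.2 CPM in the larger subcluster and at 57.4 and 20.7 CPM in the other, so its order differed between the libraries.

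**Figure D2:**
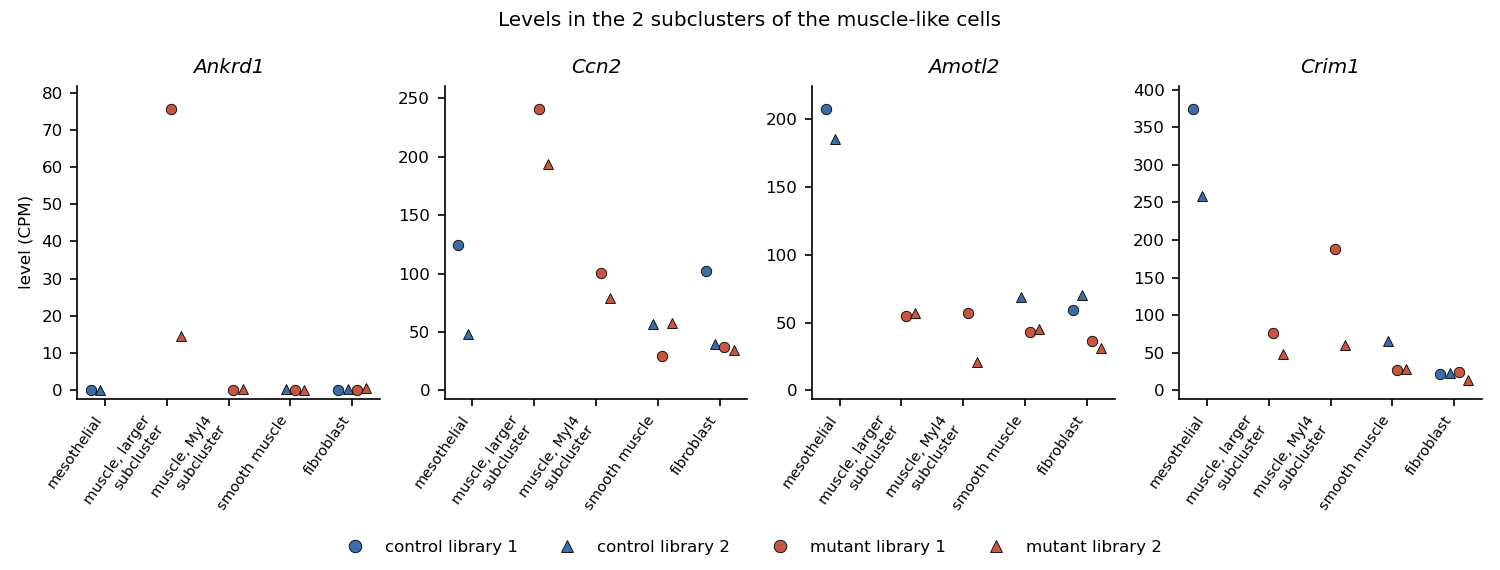
Levels in CPM (vertical axis from 0, scaled per gene) of Ankrd1, Ccn2, Amotl2 and Crim1 in mesothelial-like cells, the 2 subclusters of the muscle-like cells, smooth muscle-like and fibroblast-like cells. Each point is 1 library with at least 20 cells of that kind. Ankrd1 stands at 75.7 and 14.5 CPM in the larger muscle-like subcluster and at 0 and 0.36 CPM in the Myl4 subcluster.

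The 3 members that restrain YAP and TAZ or scaffold the cascade were all lower in the muscle-like cells. Amotl2 (chromosome 9, 102716672 to 102733418) encodes an angiomotin-like protein that holds YAP at cell junctions. It stood at 208 and 186 CPM in control mesothelial-like cells and at 53.8 and 49.5 CPM in mutant muscle-like cells. The groups were far apart relative to the spread within each, and Amotl2 fell by 1.84 ± 0.20 (log2, SE), or 3.57-fold (edgeR adjusted p = 0.00256). Lats2 (chromosome 14, 57689662 to 57758388), one of the kinases that phosphorylate YAP and TAZ, stood at 106 and 104 CPM and then at 62.8 and 42.6 CPM. It fell by 0.92 ± 0.21 (log2, SE, edgeR adjusted p = 0.0320), but did not pass without control replicate 1 or without control replicate 2 (edgeR adjusted p = 0.142 and 0.209, in a range of 9.59e-06 to 0.209). Its span overlaps that of Gm49361 on the same strand, so reads of the 2 genes could be split between them. Ajuba (chromosome 14, 54567472 to 54577558) encodes a LIM protein that binds LATS kinases and keeps them inactive at junctions under tension. It stood at 38.6 and 34.9 CPM and then at 14.8 and 11.02 CPM, and it fell by 1.43 ± 0.19 (log2, SE), or 2.69-fold (edgeR adjusted p = 0.00560). Ajuba thus acts in the opposite direction to Lats2 and Amotl2 on the pathway, and all 3 were lower. Amotl2 and Ajuba passed in 13 of 13 alternatives.

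Crim1 (chromosome 17, 78200248 to 78376592), a transmembrane protein that binds bone morphogenetic proteins, had the largest fall of the 10. It stood at 375 and 259 CPM in control mesothelial-like cells and at 84.1 and 50.6 CPM in mutant muscle-like cells, and fell by 2.16 ± 0.29 (log2, SE), or 4.47-fold (edgeR adjusted p = 0.00542). Within a control library, it was also 17.0- and 11.5-fold higher in mesothelial-like than in fibroblast-like cells of control libraries 1 and 2. In the mutants, muscle-like cells exceeded fibroblast-like cells by 3.502- and 3.53-fold. The 14 mesothelial-like cells of mutant library 2 kept 278 CPM of Crim1 and 145 CPM of Amotl2, near the controls, while their Ccn2 was at 266 CPM. These cells come from 1 library, and their values have no replicate. The 22 muscle-like cells of control library 2 stood at 58.7 CPM of Crim1 and 43.4 CPM of Amotl2 (23 and 17 UMIs). Their Ccn2 was at 23.0 CPM (9 UMIs), below the 39.5 CPM of fibroblast-like cells of that library, and they held 1 UMI of Ankrd1. They too come from 1 library, and the counts are small. Within control library 2, the small mesothelial-like cluster led by Smpd3 and Col6a5 had 56.4 CPM of Crim1, 123 CPM of Amotl2 and 224 CPM of Ccn1, beside 282, 193 and 443 CPM in the main mesothelial-like cluster. Fez2 overlaps the Crim1 span on the other strand, and whether the counting used strand is not given in the sources used here.

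**Figure D3:**
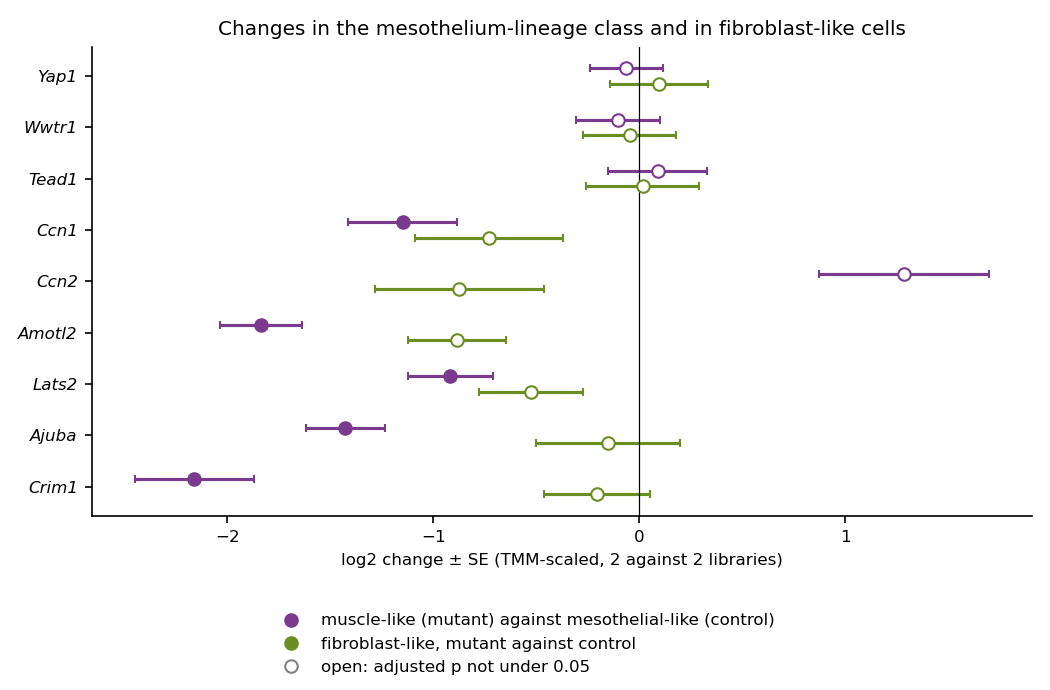
Log2 change with its SE (horizontal axis, TMM-scaled, 2 against 2 libraries) of 9 members in muscle-like cells of mutants against mesothelial-like cells of controls, and in fibroblast-like cells of mutants against controls. Filled points passed the test. Ankrd1 is left out, because it was at 0 or nearly 0 in the controls. Crim1 at -2.16 and Amotl2 at -1.84 lie farthest to the left, and Ccn2 lies on opposite sides of 0 in the 2 comparisons.

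In fibroblast-like cells, which carry the same genotypes, no member passed the test, and neither did any of the 12676 genes tested with edgeR (0% called, 268 genes at an unadjusted p under 0.05, 6 genes called by DESeq2). Ankrd1 was too low to be tested. Amotl2 stood at 59.4 and 70.6 CPM in the controls and at 36.1 and 31.1 CPM in the mutants, with a log2 change of -0.88 ± 0.24 (SE, edgeR unadjusted p = 0.00621). Both mutant values were below both control values for 4 members, namely Ccn1, Ccn2, Amotl2 and Lats2, as they were for 1588 of the 12676 genes, and above for none (992 genes). Ccn1 stood at 324, 176, 132 and 149 CPM, and Ccn2 at 102, 39.5, 37.0 and 34.3 CPM. For both genes control library 1 was high and the other 3 libraries were close together. Crim1 stood between 14.3 and 24.0 CPM in the 4 libraries. The Lef1 and Pdgfra cluster held most fibroblast-like cells in mutant library 1 and the Tcf21 cluster most in mutant library 2. With doublets kept, the log2 change of Ccn2 turned from -0.87 to 1.19. A cluster led by Smpx and Lef1 went unnamed in that setting and left the class, so that 45, 294, 30 and 1423 fibroblast-like cells entered the fit, in place of 90, 526, 105 and 2614. The doublets and the class changed together there, and their parts were not tested.

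Smooth muscle-like cells gave no test, since control library 1 had only 16 of them. Ccn1 stood at 236, 141, 115 and 102 CPM, so both mutants were below both controls. That held for 15.3% of 6637 genes with a mean of at least 20 CPM in these cells, and 7.73% had both mutants above. Of the 8 members at that level 4 lay below and none above. Amotl2, at 84.7, 68.8, 42.9 and 44.97 CPM, and Crim1, at 35.9, 65.5, 27.3 and 28.5 CPM, had the same order, as did Wwtr1, at 123, 97.2, 80.0 and 76.6 CPM. In mutant library 1 these values are 22 UMIs of Amotl2, 14 of Crim1 and 41 of Wwtr1. With 16 cells in control library 1 as well, these orders rest on few counts, that of Crim1 most of all. Ccn2 overlapped between the genotypes, at 121, 57.1, 29.3 and 57.6 CPM. Yap1 stood at 38.5, 45.9, 62.4 and 32.3 CPM and Tead1 at 221, 249.4, 252 and 183 CPM, also with overlap. The smooth muscle-like cells of the mutants thus lacked the high Ccn2 of the muscle-like cells in the same libraries. They held 0 UMIs of Ankrd1 in 22 and 129 cells. After thinning, a count of 0 allows a share of up to 13.6 and 2.38% in mutant libraries 1 and 2. Those limits are not below the 5.39 and 1.94% of muscle-like cells, so a lack of Ankrd1 is not shown.

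Over all sorted cells, no member passed (edgeR, 0.357% of 16246 genes called in either direction, 0.339% lower and 0.0185% higher, 1420 genes at an unadjusted p under 0.05, 493 called by DESeq2). In such sums, fewer cells of a type and less RNA per cell cannot be told apart. Both mutant values were below both controls for Ccn1, Amotl2, Lats2, Ajuba and Crim1 (17.8% of all genes lay so) and above for Ankrd1 (12.6%). Amotl2 stood at 140.0, 114, 49.97 and 39.4 CPM, with a log2 change of -1.44 ± 0.23 (SE, edgeR adjusted p = 0.0907). Crim1 stood at 218, 116, 65.4 and 28.8 CPM, with a log2 change of -1.78 ± 0.40 (SE, edgeR adjusted p = 0.207). Ankrd1 stood at 0, 0.34, 45.1 and 4.69 CPM (edgeR adjusted p = 0.154). With DESeq2 these 3 genes passed, at adjusted p of 0.000389 for Amotl2 (range over the alternatives 0.000389 to 0.330), 0.000704 for Crim1 (2.73e-05 to 0.493) and 0.0342 for Ankrd1 (1.96e-09 to 0.257).

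The test of the difference itself asked whether a member changed otherwise from mesothelial-like to muscle-like cells than in fibroblast-like cells of the same libraries. All these classes come from the same tdTomato sort, and their origin was not tested. It compared the excess of muscle-like over fibroblast-like cells in mutants with the excess of mesothelial-like over fibroblast-like cells in controls, with library as a block. Of the 10 members 4 passed, 1 upward and 3 downward, beside 12% of 14806 genes, 6.23% upward and 5.73% downward. The difference was 2.11 ± 0.18 (log2, SE) for Ccn2 (edgeR adjusted p = 1.9e-05), -1.95 ± 0.19 for Crim1 (5.02e-05), -1.32 ± 0.26 for Ajuba (0.00554) and -0.97 ± 0.17 for Amotl2 (0.00251). Ccn1 at -0.47 ± 0.18 and Lats2 at -0.43 ± 0.16 did not pass (edgeR adjusted p = 0.138 and 0.110). Ccn1 passed in 3 of 10 alternatives (log2 difference -0.99 to -0.23, adjusted p 0.0186 to 0.587) and Lats2 in none. Ankrd1 did not pass (edgeR adjusted p = 0.141), but it passed in 6 of 10 alternatives (adjusted p 0.000201 to 1). Yap1, Wwtr1 and Tead1 stood at -0.19, -0.08 and 0.06. The calls of Ccn2, Ajuba and Amotl2 were lost with doublets kept, with the members used in the clustering and at resolution 0.8, and that of Amotl2 also without mutant replicate 2 (edgeR adjusted p = 0.0623). In the first 3 settings the difference of Ccn2 was 0.50, 1.70 and 1.73 (edgeR adjusted p = 0.808, 0.0561 and 0.0712). The fibroblast-like class changed with each of them, since clusters went unnamed and left it. It held 30, 29 and 27 cells of mutant library 1 and 45, 43 and 42 of control library 1, in place of 105 and 90. Crim1 passed in 10 of 10 alternatives.

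Other genes of the pathway were read from lists. Of 29 genes of the Hippo cascade and its regulators, 6 fell and 1 rose between control mesothelial-like and mutant muscle-like cells. Of all genes tested, 7.52% fell and 5.42% rose. The median log2 change of the list was 0.03. The core kinases and adaptors Stk3, Stk4, Sav1, Mob1a and Mob1b had log2 changes between -0.09 and 0.12, none of which passed. Lats1, the other LATS kinase gene, was lower at -0.46 ± 0.20 (log2, SE) and did not pass (edgeR adjusted p = 0.208). In the difference of the differences it stood at -0.50 ± 0.18 (edgeR adjusted p = 0.0975). The falls were those of Lats2, Amotl2 and Ajuba, and of Wwc1, Wwc2 and Ptpn14, which restrain YAP. Wwc1 (KIBRA) stood at 50.9 and 47.0 CPM in control mesothelial-like cells and at 8.56 and 6.20 CPM in mutant muscle-like cells, and fell by 2.65 ± 0.20 (log2, SE, edgeR adjusted p = 0.000856). Wwc2 fell by 1.51 ± 0.23 (adjusted p = 0.00863), and Ptpn14 fell by 1.15 ± 0.28 (adjusted p = 0.0419). Amot, the relative of Amotl2, rose from 5.79 and 4.64 CPM to 12.3 and 9.51 CPM (log2 change 1.18 ± 0.25, edgeR adjusted p = 0.0267), so the 2 angiomotin genes changed in opposite directions.

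Of 10 coactivator, TEAD and VGLL genes, 8 were tested, 1 rose and 1 fell, with a median of 0.01. Over all genes tested 5.42% rose and 7.52% fell, and 8 genes are too few to set against those shares. The TEAD genes did not move together. Tead2 rose from 30.2 and 29.2 CPM to 64.7 and 75.7 CPM (log2 change 1.35 ± 0.22, edgeR adjusted p = 0.0104). Tead4 fell from 6.76 and 5.32 CPM to 0.86 and 0.92 CPM (log2 change -2.62 ± 0.40, edgeR adjusted p = 0.00866). Vgll3, a TEAD cofactor that competes with YAP, stood at 0.48 and 0.80 CPM in mesothelial-like and 8.13 and 1.37 CPM in muscle-like cells and did not pass (edgeR adjusted p = 0.107).

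A signature of 22 YAP and TAZ target genes, which holds 6 of the members, had 7 falls and 3 rises. Of all genes tested, 7.52% fell and 5.42% rose. The median log2 change of the signature was -0.53. Ankrd1, whose fitted change is no bound, lies above that median on any bound. Beside the members, Igfbp3 fell from 138 and 82.6 CPM to 6.98 and 5.35 CPM (log2 change -4.07 ± 0.30, edgeR adjusted p = 0.000825), and Dock5 and Ptpn14 fell too. Foxf2, a mesenchymal transcription factor, rose from 1.21 and 4.02 CPM to 17.6 and 17.5 CPM (log2 change 2.59 ± 0.41, edgeR adjusted p = 0.00986), and Fjx1 rose by 1.68 on the log2 scale (adjusted p = 0.0214). The signature thus held genes that changed in both directions. Summed, it stood at 3657 and 2707 CPM in control mesothelial-like cells, 2329 and 1502 CPM in mutant muscle-like cells, and between 892 and 1507 CPM in fibroblast-like cells.

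Of 17 targets of SRF and its MRTF coactivators, which respond to actin like YAP and TAZ do and drive contractile genes, 11 rose and none fell. Their median was 1.74, and 5.42% of all genes tested rose and 7.52% fell. Acta2 rose from 22.9 and 29.9 CPM to 2072 and 1752 CPM (log2 change 6.25 ± 0.33, edgeR adjusted p = 0.000363), and Tagln rose by 4.28 ± 0.31 on the log2 scale (adjusted p = 0.000825). Several of these genes are also smooth muscle markers, and the muscle-like class was found by clustering, so their rise describes the class. Of the 20 immediate early genes 1 rose, Myc, and 1 fell, Atf3, with a median of -0.40, beside 5.42% and 7.52% of all genes tested. Whether or not they passed, 17 of the 20 were lower in the muscle-like cells. In the difference of the differences 7 of the 20 passed downward and 1 upward, beside 5.73% and 6.23% of all genes. Among relatives of the members, Ccn4 rose by 0.82 ± 0.19 on the log2 scale (edgeR adjusted p = 0.0385), while Ccn3 and Ankrd23 did not pass.

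**Figure D4:**
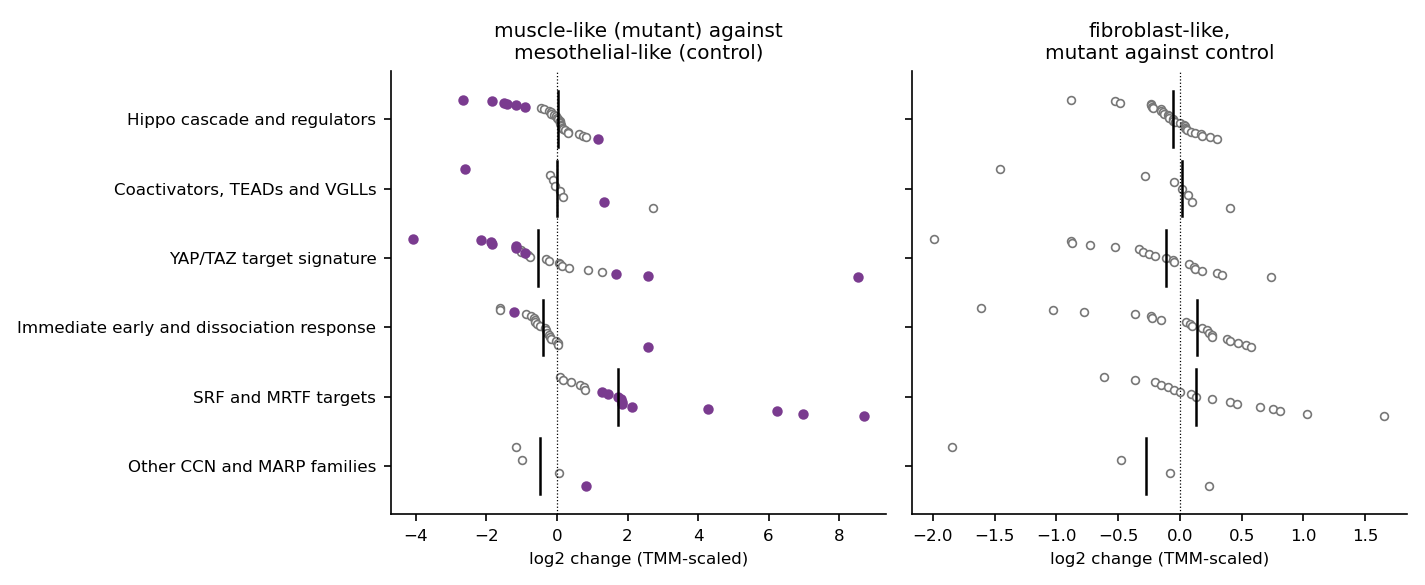
Log2 change (horizontal axis, TMM-scaled) of the tested genes of 6 lists, on the left in muscle-like cells of mutants against mesothelial-like cells of controls, on the right in fibroblast-like cells of mutants against controls. Each point is 1 gene, filled where it passed the test, and black bars are the medians of the lists. On the left the SRF and MRTF targets lie to the right of 0 with a median of 1.74, and on the right no gene passed.

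The share of cells with a UMI gave the same order as the levels for most members after thinning to 5000 UMIs per cell, which left out 12 and 33 muscle-like cells and 0 and 20 mesothelial-like cells that were shallower. Ccn2 was found in 23.9 and 14.98% of control mesothelial-like cells and in 33.2 and 30% of mutant muscle-like cells, beside 45.1, 31.7, 58.5 and 47.4% before thinning. In immune-like cells its share was 5.26% after thinning. Amotl2 was found in 55.8 and 54.6% of mesothelial-like and in 22.4 and 16.4% of muscle-like cells after thinning, and Crim1 in 73.5 and 59.8% and in 25.7 and 17.3%. Immune-like cells held Amotl2 in 31.6% and Crim1 in 36.8% of 38 cells after thinning, with 27 of the 42 such cells from control library 2, and the shares in muscle-like cells lay below these values, which rest on few cells.

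**Figure D5:**
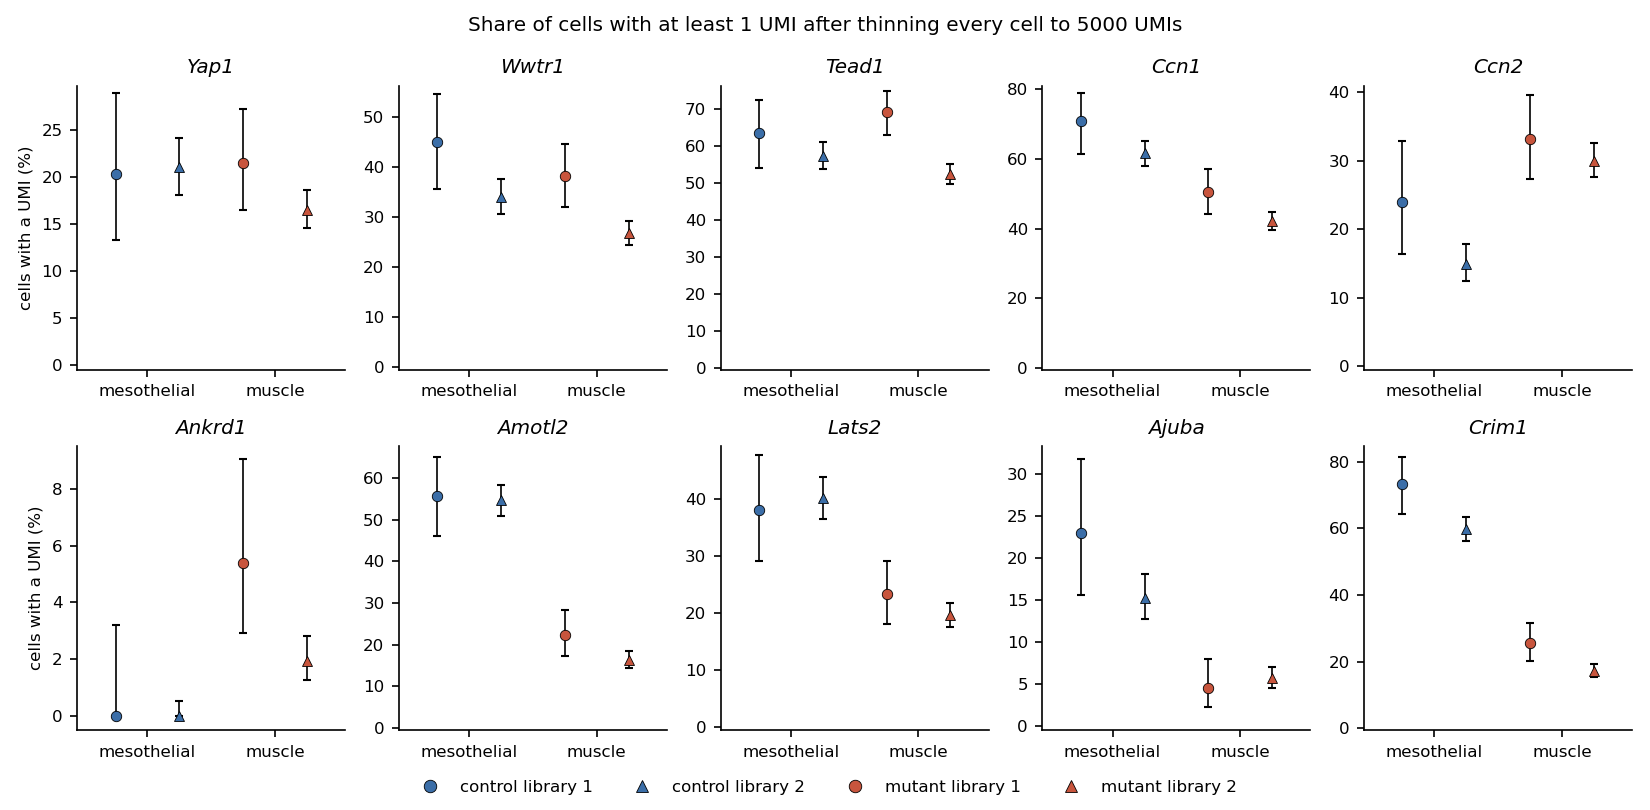
Percent of cells with at least 1 UMI of each gene after every cell was thinned to 5000 UMIs (vertical axis from 0, scaled per gene), in mesothelial-like cells of the 2 control libraries and muscle-like cells of the 2 mutant libraries. Bars are exact 95% binomial intervals, which cover counting error only. Ccn1, Amotl2, Lats2, Ajuba and Crim1 were found in a smaller share of muscle-like cells, Ccn2 in a larger one, and Ankrd1 in 5.39 and 1.94%.

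Likeness in pattern was measured over 18 sums, 1 for each class and library with at least 20 cells, as Pearson's r of log2(CPM + 1) among 6701 genes with a mean of at least 20 CPM. The sums share libraries and classes, so the values are descriptions. The genes most like Yap1 were Camsap2, Ipo8 and Zfp507 (r of 0.92, 0.90 and 0.87), those most like Wwtr1 were Klf7, Cdc42bpb and Yes1 (0.86, 0.84 and 0.83), and those most like Tead1 were Fut8, Ppp1r12a and Tro (0.93, 0.92 and 0.91). Fzd7, Fmod and Nucb2 came nearest to Ccn1 (0.91, 0.89 and 0.86). Ccn2 had no close match, with Tusc3, Cfl2 and Tex9 at 0.70, 0.68 and 0.64. Des, Ifitm3 and Ap2m1 came nearest to Ankrd1 (0.76, 0.70 and 0.67). Ankrd1 was at 0 or nearly 0 in most of these sums, so its values rest on few of them. Among the members themselves, Crim1 lay nearest to Lats2 (r = 0.71) and Amotl2 (r = 0.63), Amotl2 and Ccn1 had an r of 0.63, and Ccn1 and Ccn2 one of 0.41.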

How the data were processed

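RNA of single sorted lung cells was counted in 4 libraries, 2 per genotype, of the 10x 3' V3 chemistry. The deposited values are UMI counts for each gene and barcode, not normalized, made with Cell Ranger 6.0.2 on mm10, per the submitters' processing notes. The annotation release and the use of strand are not given in the sources used here. Titles gave each sample's group and replicate number. Gene locations are from GENCODE vM21 (mm10), which held 32158 of 32285 gene IDs.

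Barcodes with at least 1000 genes and at most 15% mitochondrial UMIs passed (8733). Scrublet's automatic threshold marked 9 doublets and did not work, so the highest scores were removed, at 0.8% per 1000 barcodes, which left 8470 cells. Clustering (scanpy 1.11.5, 3000 variable genes without the members, list genes and 485 cell cycle genes, 30 components, 15 neighbours, Leiden resolution 0.4) gave 12 clusters. Marker lists were written first, but the naming rule was set after seeing the data: a marker counted in at least 10% of cells and at least 2-fold over the median of other clusters, 3 were needed, and leading genes decided. A cluster that met no name stayed unnamed. A cluster with at least 66% of markers within 2-fold of the other cells of its library stayed unnamed as mixed.

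UMIs were summed per class and library (at least 20 cells) and tested with edgeR 4.0.16 (TMM, filterByExpr, quasi-likelihood, two-sided, Benjamini-Hochberg over all genes tested, R 4.3.3). DESeq2 1.42.0 was an alternative. These edgeR fits were also run on simulated counts. Apart from changes put in, the simulated libraries shared their gene means and had no deviations common to same-numbered libraries. That run therefore does not show how the fits behave on the real libraries. SE is the log2 change over the root of the F statistic. CPM uses raw totals, and intervals cover counting error only. Replicate libraries differed by more than counting noise (chi-square over its degrees of freedom 106 in controls, 221 in mutants), so none was the same library deposited again, but separate captures of 1 pool could differ as much.

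The text names all members, from each of 6 lists up to 4 genes with the smallest p in the main comparison beside the members, and the 3 genes most like each of 6 members. Stk3, Stk4, Sav1, Mob1a, Mob1b and Lats1 were named after their values were seen. Members, lists and markers were chosen with earlier results of these data known.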

Additional observations from a re-analysis of the deposited data

Results flagged for a closer look

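For 4 members the change from control mesothelial-like to mutant muscle-like cells differed from that in fibroblast-like cells of the same libraries. The test was an interaction term with library as a block (edgeR). The difference was 2.11 on the log2 scale for Ccn2, -1.95 for Crim1, -1.32 for Ajuba and -0.97 for Amotl2. Muscle-like cells of both mutants exceeded fibroblast-like cells in Ccn2, at 224 against 37.0 CPM in mutant library 1 and at 169 against 34.3 CPM in mutant library 2. In the controls the excess of mesothelial-like over fibroblast-like cells was smaller, at 125 against 102 CPM and at 48.4 against 39.5 CPM. For Crim1 the excess was smaller in both mutants (84.1 against 24.0 CPM and 50.6 against 14.3 CPM) than in both controls (375 against 22.0 CPM and 259 against 22.6 CPM). Crim1 passed in 10 of 10 alternatives, Ccn2 and Ajuba in 7 and Amotl2 in 6. With doublets kept the difference of Ccn2 was 0.50 (edgeR adjusted p = 0.808, in a range of 1.85e-28 to 0.808), with a smaller fibroblast-like class.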

How the results depend on the processing

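Of the member results under the alternatives, 400 kept their direction and their side of the threshold, 32 passed only under the alternative, 14 lost their call and 31 changed direction, all of the last in changes that had not passed. Crim1, Amotl2, Ajuba and Ankrd1 passed in each of 13 alternatives of the comparison of muscle-like with mesothelial-like cells. With 2 libraries per genotype, fits without 1 library assume that the lone library varies like the others. Among genes called over all sorted cells, the count of 58 became 685 with no filter on low counts, 493 with DESeq2, 37 without the mixed barcodes, 28 with an equal cell number per library, and 74 to 1097 without 1 library. The 1867 genes of muscle-like against mesothelial-like cells became 3060 with no filter, 1185 after thinning (added after seeing the data, as were the single fibroblast-like clusters), and 1129 to 4030 without 1 library. In fibroblast-like cells 0 became 119 with no filter, 6 with DESeq2 and 8 to 88 without 1 library. In the difference of the differences 1770 became 1170 with DESeq2, 550 with doublets kept, 578 with the members used in the clustering, 504 at resolution 0.8, and 867 to 2049 without 1 library, the lowest without mutant replicate 2. With doublets kept, with the members used and at resolution 0.8, the fibroblast-like class also shrank from 3335 to 1792, 1676 and 1639 cells as clusters went unnamed, so the setting and the class changed together. The Ankrd1 shares of 13.0 and 4.15% became 5.39 and 1.94% after thinning, as fewer UMIs are kept.

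The labels do not say that a replicate number marks a shared day or pool, and 2 pairs cannot show it. Deviations from the group means of same-numbered libraries correlated at 0.45, 0.47 and 0.31 across genes over all sorted cells, in muscle-like against mesothelial-like cells and in fibroblast-like cells. With the replicate block, 525, 4702 and 33 genes were called in these comparisons. Ccn2 passed in the muscle-like against mesothelial-like cells (log2 1.42, edgeR adjusted p = 1.85e-08), and over all sorted cells Ankrd1 (0.0299), Amotl2 (0.00841) and Crim1 (0.00491) passed. Tead1 in fibroblast-like cells was at -0.0022.

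Directions turned in the following cases, all small log2 changes but 1, and the cause was not tested. Over all sorted cells Yap1 was at -0.070 and Wwtr1 at -0.0090 with an equal cell number, and Wwtr1 at -0.037 without the mixed barcodes. Without 1 library, Wwtr1 ran from -0.19 to 0.21 and Tead1 from -0.12 to 0.36. In muscle-like against mesothelial-like cells Yap1 was at 0.0020 with doublets kept and Tead1 at -0.10 after thinning. Without 1 library, Yap1 ran from -0.14 to 0.018, Wwtr1 from -0.24 to 0.035 and Tead1 from -0.13 to 0.29. In fibroblast-like cells Wwtr1 was at 0.11 in the Lef1 and Pdgfra cluster. Tead1 was there at -0.087 with the members used in clustering, -0.096 at resolution 0.8 and -0.14 in the Tcf21 cluster, and Ccn2 was at 1.19 with doublets kept. Without 1 library, Yap1 ran from -0.031 to 0.24, Wwtr1 from -0.12 to 0.048, Tead1 from -0.21 to 0.23, Ajuba from -0.48 to 0.21 and Crim1 from -0.38 to 0.0017. In the difference of the differences Wwtr1 was at 0.030 with the members used in clustering and at 0.0087 at resolution 0.8, and Tead1 at -0.044 with doublets kept. Without 1 library, Wwtr1 ran from -0.23 to 0.0076 and Tead1 from -0.16 to 0.22. The other settings were not run for smooth muscle-like cells, because that comparison had no test. Depth limits Ankrd1, as 3 UMIs correspond to 0.72 and 0.19 CPM in control mesothelial-like cells.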
